A study of Mus musculus with 6 samples.

Results

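The genes described here encode 10 proteins that build, load and mature the dense-core granule: the granins Chga, Chgb, Scg2, Scg3 and Vgf, the proprotein convertases Pcsk1 and Pcsk2, the convertase chaperone Scg5, the carboxypeptidase Cpe and the amidating enzyme Pam. They were chosen by gene symbol, and every probe set whose annotation gives 1 of these symbols alone was read. That rule found 10 probe sets for 9 of the 10 genes, of 45101 probe sets and 18193 genes on the array. No probe set carried Pcsk2 as its only symbol in the annotation used, so Pcsk2 was not analysed here. Translating ribosome affinity purification (TRAP) captures the ribosomes of 1 genetically targeted cell type from a tissue lysate by an affinity tag and so collects the mRNA attached to them. The IP group held 3 samples of such ribosome-bound RNA, and the unbound group consisted of 3 samples of what remained after the capture. Both groups came from the same BAC transgenic mouse line, Slc6a4 JD60, on a mixed FVB and c57/bl6j background, in which the regulatory sequences of the serotonin transporter gene direct the tag to serotonin neurons. The mice were adults of both sexes, aged 6 to 12 weeks, and RNA of 5 mice was pooled per sample. The tissue was midbrain and brainstem with the cerebellum removed. The groups therefore differ in cell type and in ribosome binding together, and fewer cells of a type cannot be told apart from less RNA per cell.

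Neuropeptides are made as long precursors that enter the secretory pathway and are sorted with granins into dense-core granules at the trans-Golgi network. Inside the acidifying granule the prohormone convertases cut the precursor at paired basic residues, carboxypeptidase E trims the exposed basic residues, and peptidylglycine alpha-amidating monooxygenase converts a terminal glycine to an amide in a reaction that needs copper and ascorbate. Granins are abundant acidic proteins of the granule core, and several of them are themselves cut into bioactive peptides. Serotonin neurons release serotonin from small synaptic vesicles and also carry dense-core granules, which can hold peptides beside the amine.

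The promoters of Pcsk1, Scg2 and Chgb, the 3 genes found at least 2-fold higher in IP, are shown first because they share a motif that the choice of genes did not use. The motif was searched for with those results known. The sequences are RefSeq's, build GRCm38.p6, in the direction of transcription, and cover the 150 bases before the annotated start. Promoters of 300 bases (250 before to 50 after the start) were listed for 8 of the 10 genes, with no entry for Cpe and Vgf. Capitals mark the cyclic AMP response element (CRE) TGACGTCA, which reads the same on both strands, or its half-site TGACG on either strand. Each CRE contains a half-site on both strands. Chga and Scg3 are printed beside them as granin genes that were not called.
Pcsk1 promoter, chr13:75089707-75089856, plus strand: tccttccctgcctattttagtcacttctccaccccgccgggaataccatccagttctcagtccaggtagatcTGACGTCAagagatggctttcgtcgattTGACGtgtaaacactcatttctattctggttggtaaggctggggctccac
Scg2 promoter, chr1:79440027-79440176, minus strand: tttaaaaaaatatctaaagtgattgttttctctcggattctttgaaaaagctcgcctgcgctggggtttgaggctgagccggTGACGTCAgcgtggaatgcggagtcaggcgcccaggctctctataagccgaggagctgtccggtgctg
Chgb promoter, chr2:132781492-132781641, plus strand: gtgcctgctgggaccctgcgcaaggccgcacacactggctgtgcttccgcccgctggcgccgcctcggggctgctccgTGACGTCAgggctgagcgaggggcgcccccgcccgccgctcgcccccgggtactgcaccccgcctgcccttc
Chga promoter, chr12:102554791-102554940, plus strand: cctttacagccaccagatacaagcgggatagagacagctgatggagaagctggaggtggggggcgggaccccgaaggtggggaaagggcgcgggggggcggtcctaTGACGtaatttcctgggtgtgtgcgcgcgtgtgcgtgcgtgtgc
Scg3 promoter, chr9:75684057-75684206, minus strand: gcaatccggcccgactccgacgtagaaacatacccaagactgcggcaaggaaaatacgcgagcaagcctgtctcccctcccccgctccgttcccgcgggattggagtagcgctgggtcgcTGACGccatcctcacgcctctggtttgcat

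The CRE began 78 bases before the start of Pcsk1, 72 before that of Chgb and 68 before that of Scg2. A separate half-site lay 50 bases before the Pcsk1 start. Chga had a half-site 44 bases and Scg3 one 30 bases before the start. The Chga site reads TGACGtaa and the Scg3 site TGACGcca, each a single letter away from the CRE. Only exact matches were counted as a CRE, so the split of Scg2 and Chgb from Chga and Scg3 rests on that letter. Vgf, also an uncalled granin gene, had no listed promoter and is missing from this comparison. Scg5, which was not called either, had half-sites 175 bases before and 20 and 41 bases into the transcript, and the 2 listed promoters of Pam held neither form. The promoter of Pcsk2, which was not analysed, had a half-site 34 bases before the start. Of 32544 distinct mouse promoter sequences of the same length, 586 (1.8%) held the CRE and 20.9% at least a half-site, overlapping ones included. They were counted whether or not their gene was tested, so 1.8% is not the share of tested genes. Over all tested genes, 12.8% of the 320 with a CRE promoter were called higher in IP, against 10.6% of the 8315 with a listed promoter and no CRE. The medians of their log2 changes were -0.41 with a CRE and -0.64 without. These are matches of letters, and no binding was measured.

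The deposited values were log2 expression, normalised by the authors within each group separately. The IP values were shifted here by -0.23 so that the biotinylated hybridisation controls had equal means in both groups. Pearson's r over all probe sets was at least 0.996 among IP arrays, at least 0.994 among unbound arrays, and at most 0.932 between groups. Precision is limited by the number of arrays. A gene was read by its brightest probe set and tested if it reached log2 5, called the detection limit here, on at least 3 of 6 arrays. It was called higher or lower where limma's adjusted p was under 0.05 and the change at least 2-fold. All 10 tested serotonin neuron markers were higher in IP, with a summed log2 level of 16.92 to 17.15 in IP and 12.00 to 12.28 in unbound samples. Slc6a4 itself was 35.5-fold higher (14.20 ± 0.12 in IP and 9.05 ± 0.07 in unbound samples, SD, n = 3 each). All tested markers of astrocytes (8), oligodendrocytes (7), catecholaminergic neurons (6), GABAergic and glycinergic neurons (5), endothelial and mural cells (4), glutamatergic neurons (3) and cholinergic neurons (1) were lower, as were 4 of 5 for microglia, with Aif1 higher. Of these 38 lower markers, 16 were below the detection limit on all IP arrays, including all 4 of endothelial and mural cells and the cholinergic one, so that the filter fixed their direction, as it did for Aif1 and the serotonin marker Lmx1b, which were below it on all unbound arrays. Under a scaling to poly-A spike controls nearly all genes were lower, as described at the end.

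Of the 8 tested genes, Pcsk1, Scg2 and Chgb were called higher in IP and none was called lower. Over all 10581 tested genes 10.4% were called higher and 41.1% lower. The median log2 change was 0.34 over the 8 genes and -0.65 over all tested genes. The IP arrays lay above all unbound arrays for 4 of the 8 (Pcsk1, Scg2, Chgb and Scg5), against 23.9% of all tested genes, and below them for Scg3 alone, against 59.1%. Pam was below the detection limit on all 6 arrays and was not tested. Levels of different genes come from different probes and were not compared with each other.

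**Figure D1:**
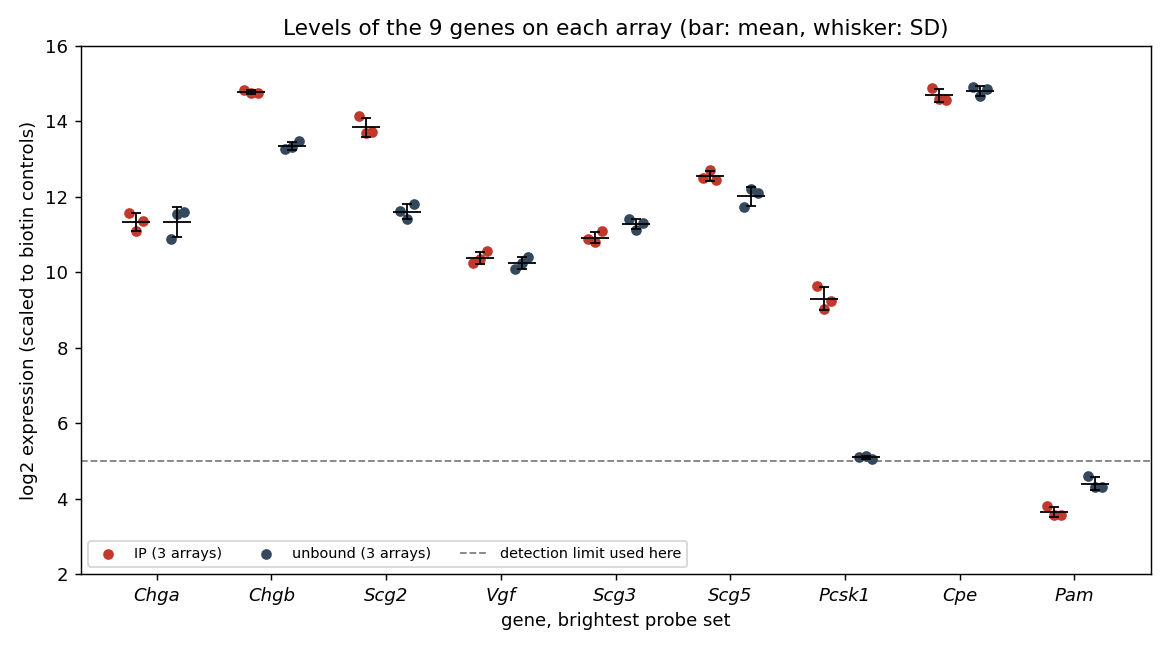
Log2 expression (vertical axis, scaled to the biotin controls) of the 9 genes on each of the 3 IP (red) and 3 unbound (dark blue) arrays, with the mean as a bar and the SD as a whisker. Groups separate widely for Pcsk1 (9.30 in IP, 5.10 in unbound RNA), by less for Scg2 and Chgb, and overlap for Chga, Vgf and Cpe, while Pam lies below the dashed detection limit, and heights of different genes are not comparable.

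Pcsk1 encodes prohormone convertase 1/3, which makes the first cuts in many peptide precursors, and it had the largest change of the set. Its log2 expression was 9.63, 9.02 and 9.24 in the 3 IP samples, against 5.10, 5.13 and 5.06 in the unbound samples. Every IP value was far above every unbound value, and the unbound values sat just over the detection limit. The fold was 18.4, a log2 change of 4.20 ± 0.16 SE with a 95% interval of 3.81 to 4.59 (limma, adjusted p = 2.77e-06). Pcsk1 ranked 38th from the top of 10581 tested genes by log2 change. The IP samples spread more (SD 0.31) than the unbound ones (SD 0.03). Leaving out any 1 array kept the change between 3.92 and 4.47, and Pcsk1 was called higher under each of the 20 settings tried.

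Scg2, secretogranin II, is a granin and the precursor of secretoneurin. It had log2 expression of 14.13, 13.70 and 13.71 in IP, against 11.62, 11.42 and 11.80 in unbound RNA. The first IP sample was the highest and all 3 IP samples exceeded all unbound ones. The difference was 4.70-fold (log2 change 2.23 ± 0.16 SE, 95% interval 1.84 to 2.63, limma, adjusted p = 3.87e-05), and it was called under 19 of 20 settings, the exception being the poly-A scaling at -0.44. Without 1 array it lay between 1.97 and 2.44.

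Chgb, chromogranin B, is a core protein of the granule. Its values were 14.83, 14.74 and 14.74 in IP and 13.26, 13.33 and 13.47 in unbound RNA. The groups did not overlap, and IP samples 2 and 3 held exactly the same deposited number, so the IP SD of 0.05 rests on 2 distinct values. Chgb was 2.68-fold higher in IP (log2 change 1.42 ± 0.09 SE, 95% interval 1.21 to 1.64, limma, adjusted p = 1.91e-05), a direction that turned to -1.25, called lower, under the poly-A scaling. Among probe sets with a group mean of at least 5, 15.8% in IP and 0.482% in unbound RNA held 1 value on all 3 arrays. Chgb is not among these, and repeats on only some arrays were not counted. The change of Chgb was 1.27 to 1.57 without any 1 array.

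The remaining granins were not called. Chga, chromogranin A, which promotes granule formation, had 11.58, 11.09 and 11.35 in IP, against 10.88, 11.54 and 11.61 in unbound RNA. The groups overlapped fully and their means were both 11.34, with SDs of 0.24 and 0.40. The 95% interval of its log2 change ran from -0.57 to 0.57 (limma, adjusted p = 0.990), so a change of 2-fold either way lay outside it under the biotin scaling.

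Vgf, a granin-like precursor of several peptides that is induced by neurotrophins, had 10.24, 10.35 and 10.56 in IP and 10.09, 10.25 and 10.42 in unbound RNA. The ranges overlapped, although each IP sample was above the unbound sample of its own number (by 0.15, 0.10 and 0.14), and the log2 change of 0.13 had a 95% interval of -0.18 to 0.44 (limma, adjusted p = 0.370, and 0.240 with the pairs as a block). Scg3, secretogranin III, binds chromogranin A and cholesterol-rich granule membrane. Its values were 10.87, 10.80 and 11.09 in IP and 11.41, 11.14 and 11.30 in unbound RNA. All IP values were below all unbound values, but the log2 change of -0.36 ± 0.12 SE was under 2-fold and was not called (95% interval -0.65 to -0.08, limma, adjusted p = 0.0284). Both median scalings gave Scg3 a positive change (0.66 and 0.44).

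Scg5 encodes 7B2, the chaperone that keeps prohormone convertase 2 inactive until it reaches the granule. It had 12.51, 12.70 and 12.45 in IP, against 11.73, 12.22 and 12.10 in unbound RNA. The 3 IP samples were above the 3 unbound samples, with the first unbound sample the lowest. The log2 change of 0.54 ± 0.15 SE (95% interval 0.17 to 0.91, limma, adjusted p = 0.0171) stayed under 2-fold, so Scg5 was not called. Its partner convertase, Pcsk2, had no probe set under its symbol alone to set beside it.

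Cpe, carboxypeptidase E, which removes the basic residues left by the convertases, was measured by 1 probe set at 14.89, 14.60 and 14.58 in IP and 14.91, 14.66 and 14.87 in unbound RNA. The groups overlapped, and the log2 change was -0.12 (95% interval -0.42 to 0.18, limma, adjusted p = 0.393). Its other probe set sat at each group's lowest array value on all 6 arrays and carried no measurement. Pam, which encodes the amidating enzyme, had 3.81, 3.56 and 3.56 in IP and 4.60, 4.30 and 4.30 in unbound RNA. All of these lay below the detection limit, and samples 2 and 3 of each group shared 1 value. Pam had no other probe set, and whether this one reads its RNA was not tested. Pam was tested only when the filter on low values was dropped, and the log2 change of -0.75 was then not called.

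**Figure D2:**
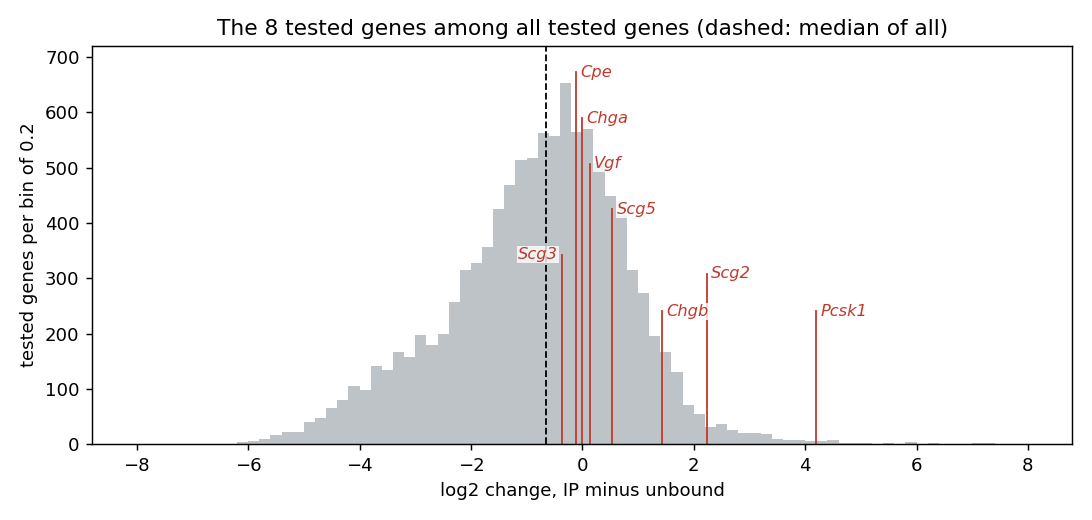
Number of tested genes per 0.2 of log2 change, IP minus unbound under the biotin scaling (horizontal axis), for all 10581 tested genes in grey, with the 8 tested genes as red lines whose heights have no meaning. Pcsk1 at 4.20 lies far out in the upper tail, Scg2 and Chgb on its slope, and the other 5 between -0.36 and 0.54, all to the right of the dashed median of -0.65.

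The size of the change differed between genes of the set, which can be read within each array, where a shift of whole arrays cancels, though quantile normalisation, which moves values by rank, does not. Pcsk1 minus Scg2 lay between -4.67 and -4.47 on IP arrays, against -6.74 to -6.29 on unbound arrays, a difference in change of 1.97 ± 0.14 SE (3.17 after quantile normalisation). Scg2 minus Chgb differed by 0.81 ± 0.14 SE and Chgb minus Scg5 by 0.88 ± 0.15 SE between groups (1.04 and 0.55 after quantile normalisation). In these 3 pairs of neighbours in the order of change the groups did not overlap. The two-sided exact permutation test, with arrays unpaired, gave p = 0.1 for each, the smallest that 3 arrays against 3 allow. Adjusted over all 28 pairs it was 0.127. The neighbours below them overlapped between groups: Scg5 and Vgf (0.41, exact p = 0.2), Vgf and Chga (0.13, exact p = 0.8), Chga and Cpe (0.12, exact p = 0.9), and Cpe and Scg3 (0.24, exact p = 0.4). With same-numbered IP and unbound samples taken as pairs, Scg5 minus Vgf was higher in IP in 3 of 3 pairs (by 0.63, 0.38 and 0.21), and the other 3 of these differences in 2 of 3. After quantile normalisation Scg5 minus Vgf was only 0.02, Vgf minus Chga 0.36 and Chga minus Cpe 0.62. It put Cpe below Scg3, with a difference of -0.32. In all, 22 of 28 pairs had no overlap, close to the 81.9% of all pairs of tested genes, so unequal change is not particular to these genes.

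**Figure D3:**
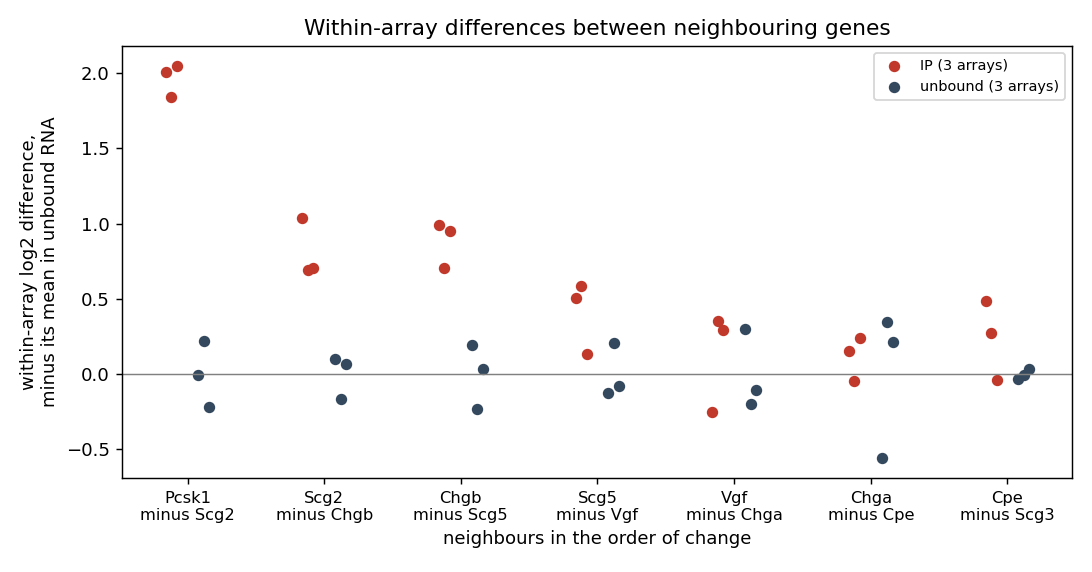
Within-array log2 difference between neighbours in the order of change (vertical axis), minus its mean over the 3 unbound arrays, for 3 IP (red) and 3 unbound (dark blue) arrays. The IP points stand clear of the unbound points for the first 3 pairs and mix with them for the other 4.

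The genes whose values over the 6 arrays were nearest to those of Pcsk1, by Euclidean distance of log2 expression, were C130021I20Rik (distance 0.896), Efcab10 (0.991) and Cpne7 (1.14). Each had an unbound mean below the detection limit, at 4.84, 4.68 and 4.53, while that of Pcsk1 was just above it. Counting unbound arrays at no less than the limit, they were at least 15.8-fold, 18.3-fold and 18.8-fold higher in IP. They were chosen for closeness to the values of Pcsk1, so a fold near that of Pcsk1 was fixed by the choice. No unbound array of Cpne7 reached the limit, so the filter also fixed its direction. Cpne7 encodes a copine, a calcium-dependent membrane-binding protein.

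Among the other proprotein convertases, 2 of 5 tested genes were higher and none was lower (median log2 change 0.01), whereas the poly-A scaling gave 0 higher and 4 lower. Pcsk5, which encodes a convertase able to act in both the constitutive and the regulated pathway, had 10.27, 10.59 and 10.71 in IP, against 7.38, 7.13 and 7.40 in unbound RNA. All IP values were well above the unbound ones, 9.34-fold on average (log2 change 3.22 ± 0.15 SE, limma, adjusted p = 5.46e-06). Pcsk6, a convertase of the constitutive pathway, was 2.53-fold higher at 7.08 ± 0.17 in IP and 5.74 ± 0.04 in unbound samples (SD, n = 3 each), and -1.34 and called lower under the poly-A scaling. Furin and Mbtps1, the convertases of the trans-Golgi network and Golgi, had log2 changes of 0.01 and -0.06.

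Pcsk1n encodes proSAAS, a granin-like inhibitor of prohormone convertase 1/3. It was 13.46, 13.42 and 13.43 in IP, against 11.72, 12.11 and 12.39 in unbound RNA. The groups were well apart, and Pcsk1n was 2.57-fold higher (log2 change 1.36 ± 0.17 SE, limma, adjusted p = 0.000493), turning to -1.32 under the poly-A scaling. Nucb2, the precursor of nesfatin-1, was 2.55-fold higher, at 9.24 ± 0.17 in IP and 7.89 ± 0.28 in unbound samples (SD, n = 3 each), and -1.33 under the poly-A scaling. These were 2 of 4 tested genes on the list of the convertase inhibitor and granin-like proteins, with none lower and a median of 1.02 (4 of 4 higher under both median scalings and 4 of 4 lower under the poly-A one). Its other 2 genes were not called, and the 3 tested probe sets of Gnas ranged from -4.58 to 2.60.

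Enzymes that modify peptide ends went both ways, with 2 of 5 tested genes higher and 2 lower (median -0.49), or 0 and 3 of 4 under the poly-A scaling. Qpct, the secreted glutaminyl cyclase that forms pyroglutamate at peptide amino termini, was 3.83-fold higher, at 9.03 ± 0.34 in IP and 7.09 ± 0.09 in unbound samples (SD, n = 3 each), but -0.74 and not called under the poly-A scaling. Qpctl, its Golgi relative, was at least 3.80-fold higher, with all unbound arrays below the detection limit, so that the filter fixed its direction. Cpm, a membrane-bound carboxypeptidase, fell by 2.42 on the log2 scale, to 5.37 ± 0.17 in IP against 7.79 ± 0.09 in unbound samples (SD, n = 3 each).

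The list for the copper and ascorbate supply of PAM had 1 of 5 tested genes higher and 3 lower (median -1.09), and 5 lower under the poly-A scaling. Cyb561, the granule membrane cytochrome that regenerates ascorbate, had 12.41, 12.20 and 12.24 in IP, against 10.89, 11.15 and 11.28 in unbound RNA. It was 2.27-fold higher with no overlap (log2 change 1.18 ± 0.13 SE, limma, adjusted p = 0.000223). The poly-A scaling turned its change negative, called lower, and without the first IP sample it was 1.00 and not called. Atp7a, the copper pump of the secretory pathway, was below the detection limit on all IP arrays and at least 5.53-fold lower there, a direction the filter fixed. Slc23a2, an ascorbate transporter of the plasma membrane, fell by 2.05, and Slc31a1, the copper importer, by 1.09. Slc31a1 was not called without scaling (-0.85), after quantile normalisation, under either median scaling, with the mean of its probe sets, or without the second IP or the first unbound sample (-0.96 and -0.87).

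Of 11 tested genes of granule biogenesis and membrane, 2 were higher and 4 lower (median 0.04), a balance that was 6 and 2 after centring on array medians over all probe sets and 1 and 9 under the poly-A scaling. Slc18a2, the vesicular monoamine transporter, is also on the serotonin neuron marker list. It had 14.03, 13.40 and 13.50 in IP, against 7.96, 7.83 and 7.72 in unbound RNA, 55.8-fold higher in IP with no overlap (limma, adjusted p = 1.43e-06). Kalrn, whose product binds the cytosolic tail of PAM, fell by 3.86, to 5.50 ± 0.01 in IP against 9.36 ± 0.24 in unbound samples (SD, n = 3 each). Sorl1, a sorting receptor of the trans-Golgi network, fell by 2.40.

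Genes of granule priming and release were 3 higher and 3 lower of 11 tested (median -0.21), or 0 and 8 under the poly-A scaling. Cadps and Cadps2 encode the CAPS proteins that prime dense-core granules for release. Cadps2 had 7.27, 7.53 and 7.66 in IP, against 10.46, 10.56 and 10.48 in unbound RNA. Every IP value was far below the unbound values, 8.06-fold on average (log2 change -3.01 ± 0.12 SE, limma, adjusted p = 3.16e-06). Cadps had 11.31, 10.70 and 10.60 in IP and 12.61, 11.98 and 12.20 in unbound RNA. It was lower in IP by 2.63-fold without overlap (log2 change -1.39 ± 0.24 SE, limma, adjusted p = 0.00226), and was not called under the 2 median scalings (-0.37 and -0.59). Syt7, a calcium sensor of slow exocytosis, fell by 2.21, and Stx1a, a SNARE protein of the plasma membrane, was 3.68-fold higher, at 11.66 ± 0.25 in IP and 9.78 ± 0.06 in unbound samples (SD, n = 3 each), and -0.80 and not called under the poly-A scaling.

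The cargo went both ways: of 21 tested peptide precursors 4 were higher and 13 lower (median -1.81). The counts were 8 and 7 of 20 after centring on array medians over all probe sets, and 1 and 18 of 20 under the poly-A scaling. Trh, the precursor of thyrotropin-releasing hormone, was below the detection limit on all unbound arrays and at least 44.8-fold higher in IP. Nts, the neurotensin precursor, and Pmch, that of melanin-concentrating hormone, were below it on all IP arrays and at least 9.27-fold and 1.86-fold lower. The filter fixed the direction of these 3 and of 5 more, in all 2 of the 4 higher and 6 of the 13 lower precursors. Over the 7 lists together, 16 of 62 tested genes were higher and 25 lower, with a median of -0.28.

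**Figure D4:**
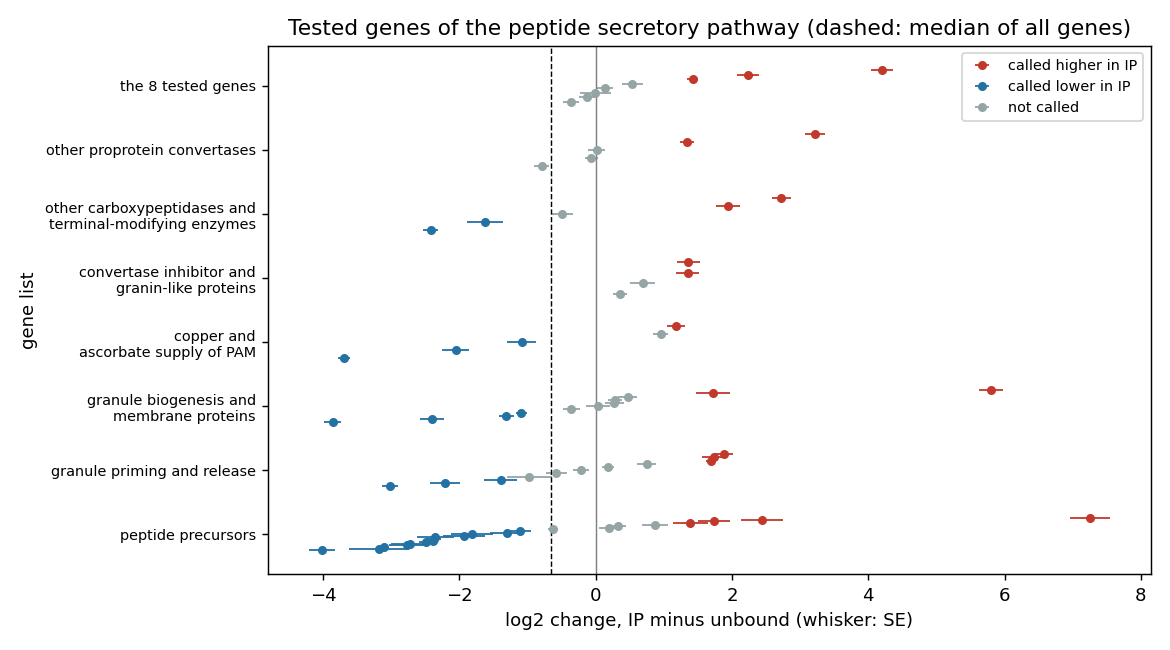
Log2 change, IP minus unbound (horizontal axis, whisker: SE), of each tested gene of the set and of 7 lists of the peptide secretory pathway, in red where called higher in IP, blue where called lower and grey where not called. Most lists hold red and blue points, and the dashed line marks the median of all genes, -0.65. Peptide precursors run from -4.02 to 7.26, and the genes at both ends lay below the detection limit in 1 group. The positions shift together under scalings of whole arrays and unequally under quantile normalisation, and the poly-A scaling turns most red points negative.

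Pituitary hormone genes were looked at because endocrine cells are rich in the same granule proteins. Of 6 such genes, 5 were below the detection limit on all IP arrays. The sixth, Pomc, which neurons also express, was the only one tested and was 2.62-fold higher in IP, at 7.37, 7.93 and 7.81 in IP, against 6.02, 6.82 and 6.09 in unbound RNA (limma, adjusted p = 0.00300), turning to -1.29 under the poly-A scaling. Gh was 3.22, 3.36 and 3.36 in IP and 7.78, 3.95 and 6.95 in unbound RNA, and Prl was 2.86, 1.98 and 1.98 in IP and 6.38, 3.86 and 2.19 in unbound RNA, so the unbound samples differed widely in both. The summed log2 level of the list was 7.60 to 8.07 in IP and 7.29 to 8.58 in unbound samples. Its part in the unbound levels above was not tested.

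How far the changes lie from 0 depends on how IP and unbound arrays are brought to 1 scale. The median log2 change of all tested genes was -0.65 under the biotin scaling, -0.41 without scaling, 0.04 after quantile normalisation, 0.20 and 0.44 with arrays centred on their medians over expressed and over all probe sets, and -3.37 under the poly-A scaling. The calls over all genes were split as 1104 higher and 4354 lower under the biotin scaling, 2507 and 2479 after quantile normalisation, 2887 and 2481 with the median over expressed probe sets, 3563 and 2067 with that over all, and 35 and 9992 under the poly-A scaling. Pcsk1 was called higher in all of them, with changes from 1.52 under the poly-A scaling to 5.28. Scg5 was called higher under both median scalings (1.56 and 1.34), and Vgf and Chga under the median over all probe sets (1.15 and 1.02). Over the 20 settings, the share of tested genes with a smaller change than the named gene was 99.6% to 99.9% for Pcsk1, 93.1% to 99.0% for Scg2, 77.6% to 96.1% for Chgb, 64.2% to 87.2% for Scg5, 63.7% to 79.8% for Vgf, 53.3% to 76.7% for Chga, 36.0% to 73.6% for Cpe and 44.5% to 60.8% for Scg3.

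**Figure D5:**
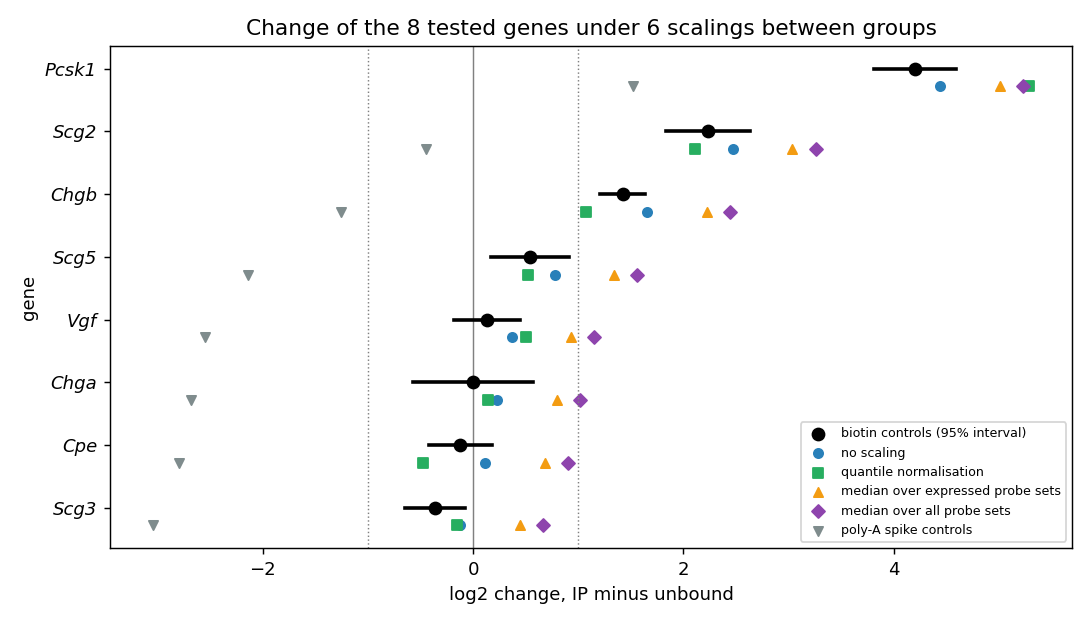
Log2 change, IP minus unbound (horizontal axis), of the 8 tested genes under 6 scalings between groups. Black points and bars give the biotin scaling with its 95% interval, coloured symbols the others, and dotted lines mark a change of 2-fold: Pcsk1 stays to the right of them under every scaling, Scg2 and Chgb under all but the poly-A scaling, and under the poly-A scaling only Pcsk1 keeps a positive change, while Chga, Cpe and Scg3 change sign among the other scalings too.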

How the data were processed

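RNA was amplified in 2 cycles from 20 ng of total RNA and hybridised to Affymetrix mouse expression arrays, per the labels' protocols. The deposited values are log2 expression per probe set, which the authors made with GCRMA, run on the replicates of IP and of unbound RNA apart, per the design text and the submitters' processing notes (tool name only). Its version was not given in the labels. The log2 scale was inferred from the numbers, which have a floor of 2.22 in IP and 2.17 in unbound RNA.

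As that text recommends, the groups were scaled to each other, here by the mean of 18 biotinylated control probe sets. Of 45101 probe sets, 34945 had 1 gene symbol, 932 several, 9160 none, and 64 were controls. Names came from the platform annotation. Each gene was read by its brightest probe set and tested in R 4.3.3 with limma 3.58.1 (lmFit, then eBayes) with group as the only term. P-values are two-sided and were adjusted over 10581 genes by Benjamini-Hochberg. The procedure was tested on simulated data. Folds given as at least a value count dim arrays at the detection limit of log2 5. Intervals are at 95%.

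The genes, lists and tests were chosen with earlier results of these data known. All 10 genes were to be described, with Cadps, Cadps2, Pcsk1n and Cyb561, up to 3 called genes of each other pathway list by largest change, and the 3 genes nearest to the one with the largest change; Furin, Mbtps1, Gnas, Slc6a4, Aif1, Gh and Prl were added after their values were seen. Alternatives were other scalings, filters, probe set summaries, array weights, removal of identical values, a replicate block, and leaving out each array. Replicates of a group are biological, per the labels. Each unbound sample names an IP replicate. The deviations of same-numbered samples from their group means correlated at 0.27, 0.16 and 0.10, all over the bound of 0.1. The numbers were therefore taken as pairs in the replicate block and in the pair-by-pair differences. The main fit and the permutation test left the pairs out, so their intervals and p-values do not account for them. A different pair, IP replicate 3 and unbound replicate 2, correlated at 0.21.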

Additional observations from a re-analysis of the deposited data

How the results depend on the processing

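Pcsk1 was called higher under all 20 settings, and Scg2 and Chgb under 19, the exception being the scaling to poly-A spike controls, where Scg2 was -0.44 and not called, Chgb -1.25 and called lower, Scg5 -2.14, Vgf -2.55, Chga -2.68, Cpe -2.80 and Scg3 -3.04. That scaling left 1 of the 8 genes higher and 6 lower, and 35 of all genes higher and 9992 lower. With arrays centred on the median over all probe sets, 6 of the 8 were higher, and the changes were 1.02 for Chga, 0.90 for Cpe and 0.66 for Scg3. With the median over expressed probe sets they were 0.80, 0.68 and 0.44. Chga was 0.23 and Cpe 0.11 without scaling, and Chga 0.14 after quantile normalisation. Over all genes, 3563 were higher and 2067 lower with the first median, 2887 and 2481 with the second, 2507 and 2479 after quantile normalisation, and 1748 and 7233 with every probe set by itself, where more features are tested. Which scaling is right was not tested. Without 1 array, Chga ranged from -0.24 to 0.25, being positive without IP replicate 2 (0.25), unbound replicate 2 (0.06) or unbound replicate 3 (0.10), and Cpe from -0.34 to 0.05, being positive without IP replicate 2 (0.053). The genes called lower ranged from 2770 (without unbound replicate 1) to 4635. The replicate block gave 1108 genes higher and 4360 lower and changed no call of the 8 genes. Its adjusted p (limma) was 3.95e-05 for Pcsk1, 0.000180 for Scg2 and 0.000273 for Chgb. Of 152 values of single genes of the set under alternatives, 129 kept direction and call, 17 turned sign and 9 gained a call, 3 of them with a turned sign. Many of the 129 were fixed in direction. Other filters, array weights, removal of identical values, the replicate block and each array's own biotin controls left these genes' log2 changes as they were. So did reading every probe set by itself. Only the adjusted p could move there. Pam lay below the detection limit on all arrays, and the unbound level of Pcsk1 lay just above it.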

Other observations

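Further called genes of the granule lists, chosen after their values were seen, also moved both ways. Ptprn, which encodes the granule membrane protein IA-2, was 3.31-fold higher, at 10.08 ± 0.10 in IP and 8.36 ± 0.50 in unbound samples (SD, n = 3 each), and -0.95 and not called under the poly-A scaling. The SNARE protein gene Vamp2 was 3.32-fold higher, at 12.97 ± 0.27 in IP and 11.24 ± 0.17 in unbound RNA, and Syt9, a calcium sensor of exocytosis, was 3.22-fold higher, at 10.39 in all 3 IP samples and 8.70 ± 0.05 in unbound samples (SD, n = 3 each). Both were negative and not called under the poly-A scaling (-0.95 and -0.99). Arfip1, a binder of Arf-family proteins at the Golgi, was 2.48-fold lower, at 9.45 ± 0.08 in IP and 10.76 ± 0.16 in unbound RNA, and was not called under either median scaling or after quantile normalisation. Tac1, the substance P precursor, was 3.32-fold higher, at 13.65 ± 0.35 in IP and 11.92 ± 0.32 in unbound samples (SD, n = 3 each), and was not called with the mean of its probe sets (0.77) or under the poly-A scaling (-0.94). Atox1, a copper chaperone, had a log2 change of 0.95 by its brightest probe set, just under the 2-fold limit. Its other tested probe set had 1.33 and was called higher when read by itself.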
